A study of Mus musculus with 8 samples.

Results

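The genes described here are the translation initiation and elongation factors of mouse, chosen by name: every gene whose symbol in the authors' deposited table begins with Eif or Eef followed by a number, without Eif2ak2 and Eif2ak3. The rule uses names only and no measured value, and it found 67 of the 47937 gene IDs in the count tables. Besides the factors themselves it takes in enzymes that modify them, proteins that bind or transport eIF4E, and 2 pseudogenes.

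Libraries were made from a pro-B cell culture immortalised by Abelson virus (A-MuLV), in which early B cell precursors keep growing. All cells had the genotype EBF1-dTAG_N, in which a modified EBF1 gene stands in for the endogenous protein, a transcription factor required for B cell identity, and adds a dTAG degron to it. dTAG-13 is a small molecule that directs proteins with this degron to degradation. One group of 4 libraries received 0.5 µM dTAG-13 for 6 h, and the other group of 4 libraries received the solvent DMSO, for 6 h by the treatment label and 0 h by the sample titles. The series calls the 4 libraries of a condition biological replicates and does not say whether they came from separate cultures, so p-values measure the spread between these libraries. No library came from cells without the tag, so effects of the compound itself and effects of EBF1 loss cannot be told apart. Whether the cells are 1 clone is not stated.

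Translation starts when the small ribosomal subunit, carrying the initiator tRNA delivered by eIF2, is loaded onto an mRNA by the cap-binding eIF4 factors and the scaffold eIF3, and scans to a start codon under the control of eIF1 and eIF1A. eIF2B reloads eIF2 with GTP, and phosphorylation of eIF2 by kinases such as GCN2 blocks that step. During elongation eEF1A brings aminoacyl-tRNA to the ribosome and eEF2 moves the ribosome along the mRNA. Lymphocyte precursors depend on high rates of protein synthesis while they proliferate, and many of these factors are among the most abundant mRNAs of dividing cells.

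RNA was measured as reads over exons, given as CPM, the count of a gene scaled to a fixed library size after TMM normalization. It was also measured as reads over introns, which can come from RNA not yet spliced, and their origin was not tested. Exonic depth was 28982316 to 38999496 reads per library, and 20.4% to 27.3% of whole-gene reads were intronic. Exonic Ebf1 RNA was 815, 756, 723 and 773 CPM in the dTAG-13 libraries and 639, 608, 615 and 628 CPM in the DMSO libraries, a log2 change of 0.30 ± 0.04 (SE; edgeR adjusted p = 2.1e-07), which does not measure the tagged protein; over whole genes the adjusted p was 0.363. Of 12 pro-B cell markers 11 had a mean of at least 1 CPM in DMSO libraries, with Kit at 0, and the T cell and erythroid markers were all at 0. Dntt had a mean of 1.53 CPM in dTAG-13 and 1.24 CPM in DMSO libraries and was not called (log2 change 0.30, edgeR adjusted p = 0.463). The other tested pro-B markers were called lower. The summed level of the 12 pro-B markers was 1534 to 1609 CPM in dTAG-13 libraries and 2590 to 2660 CPM in DMSO libraries. The 4 myeloid markers summed to 0.485 to 1.11 CPM in dTAG-13 libraries and 0.162 to 0.449 CPM in DMSO libraries, without overlap. Most of these sums was Lyz2, at a mean of 0.575 CPM in dTAG-13 and 0.235 CPM in DMSO libraries, a log2 change of 1.26 (edgeR adjusted p = 0.0305). In the same order Itgam stood at 0.048 and 0 CPM, Mpo at 0.041 and 0.052 CPM and Csf1r at 0 and 0.024 CPM, all too low to be tested. The 3 stromal markers summed to 0 to 0.272 CPM in dTAG-13 libraries and 0 to 0.0690 CPM in DMSO libraries, with Pdgfrb at 0. The part of these marker levels in the results on translation factors was not tested, and in these bulk samples fewer cells of a type and less RNA per cell cannot be told apart.

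The translation factor mRNAs took 2.08% ± 0.0141 of exonic reads in dTAG-13 libraries and 2.08% ± 0.0486 in DMSO libraries (SD, n = 4 each). Eef1a1 and Eef2, the genes of eEF1A and eEF2, alone made up 50.3% ± 0.351 of these reads in dTAG-13 libraries and 49.3% ± 0.319 in DMSO libraries. Of the 67 genes, 63 passed the filter on low counts and were tested. The 4 that did not pass were Eif4a3l1, Eif4a3l2, the pseudogene Eif3s6-ps2 and Eef1akmt3, none of which reached 12 exonic reads in any library.

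After 6 h of dTAG-13 most of these mRNAs stayed close to their DMSO level, with a median size of the log2 change of 0.07 over the tested genes, against 0.13 over all genes. In exonic reads 16 of the 63 tested genes fell and 2 rose at an edgeR adjusted p below 0.05. The 18 called genes were 28.6% of those tested, against 28.3% of all 12889 genes tested, so the share called was that of the whole table. By direction, 25.4% were called lower against 14.0% of all genes, and 3.17% were called higher against 14.3% of all genes. The median log2 change of the 63 genes was -0.06 and that of all tested genes -0.003, and 47 of the 63 values lay below 0 (74.6%, against 50.7% of all genes). The changes were small: the median size of the log2 change was 0.16 over the 18 called genes and 0.29 over all 3649 called genes. Of those called genes, 1410 (38.6%) changed by more than any called translation factor gene did. In 11 of the 16 lower genes every dTAG-13 library lay below every DMSO library, against 83.4% of the genes called lower in the whole table. With counts over whole genes 7 fell and 1 rose, and with exon counts but without dTAG-13 replicate 3 13 fell and 1 rose. The shares of all genes called in these settings are not given here, so whether the drops are particular to these genes was not tested.

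**Figure D1:**
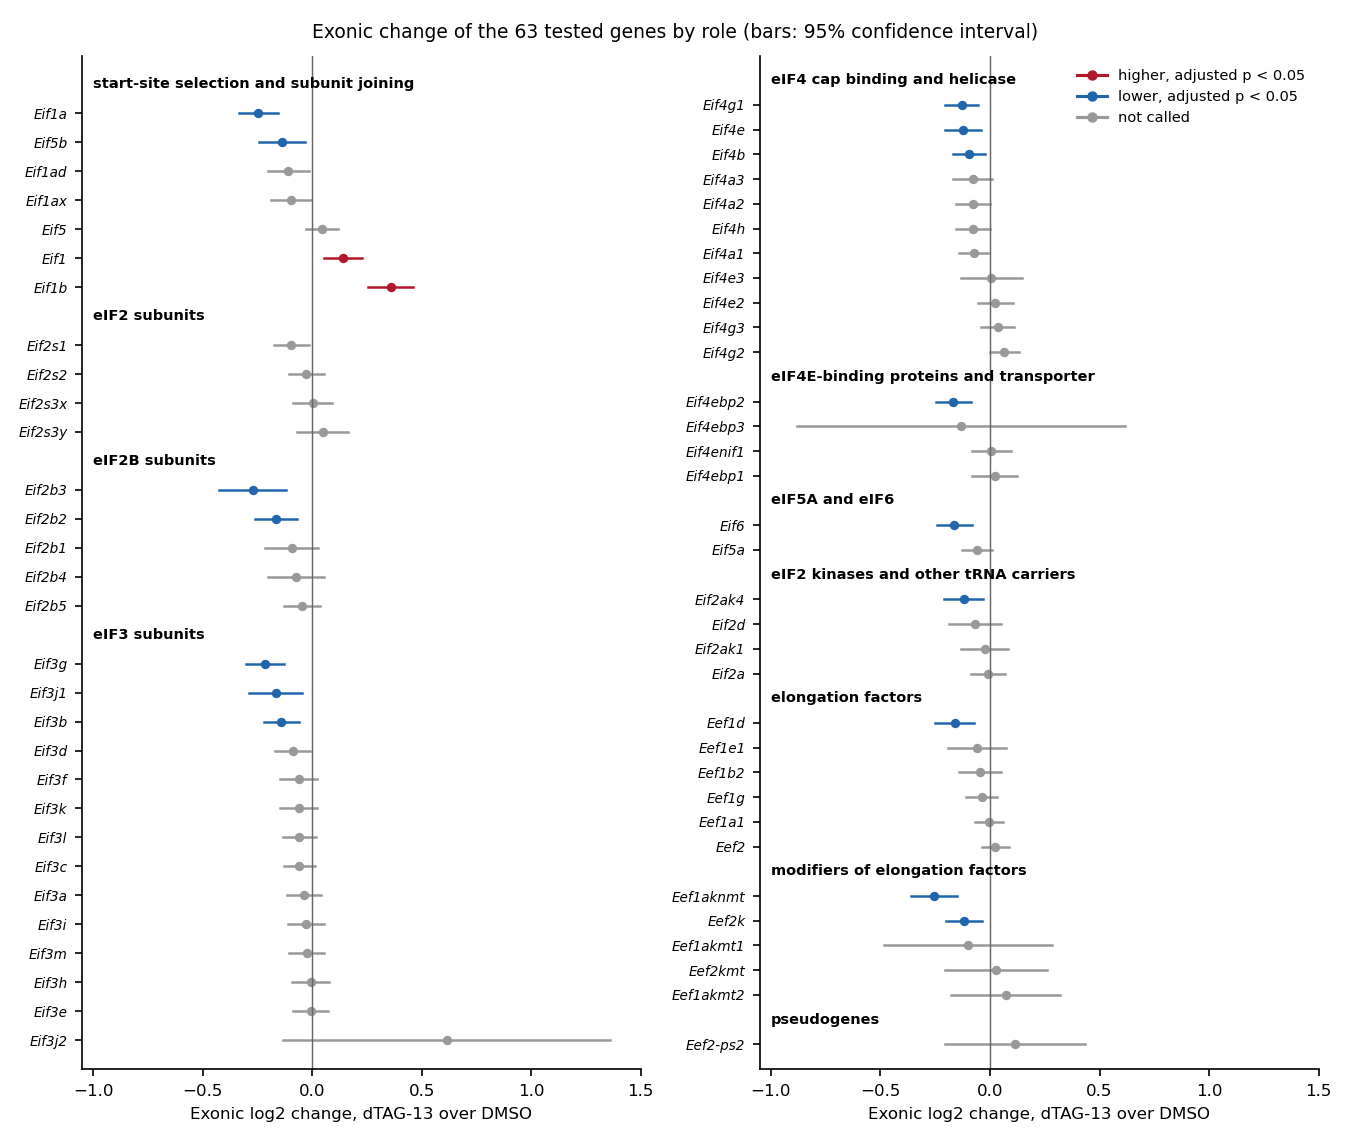
Exonic log2 change (dTAG-13 over DMSO, x axis) of the 63 tested genes, grouped by role, with 95% confidence intervals from the edgeR fit (n = 4 libraries per group). The 16 lower genes are spread over 9 of the role groups, and both higher genes, Eif1b and Eif1, belong to start-site selection.

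The factors of start-site selection and subunit joining held the largest called change and both of the rises: of 7 genes, 2 rose, 2 fell and 3 did not pass. Eif1b, a close paralog of Eif1, had 37.0, 36.6, 35.7 and 36.3 CPM in dTAG-13 libraries, against 27.9, 29.2, 29.1 and 27.5 CPM in DMSO libraries. All dTAG-13 libraries lay above all DMSO libraries, and the log2 change was 0.36 ± 0.05 (SE), a rise of 28.2% (95% interval 19.3% to 37.7%; edgeR adjusted p = 2.6e-06). Eif1, whose protein keeps the scanning ribosome from stopping at a wrong start codon, had 275, 259.8, 271 and 235 CPM in dTAG-13 libraries and 240.1, 240.1, 232 and 233 CPM in DMSO libraries. Only dTAG-13 replicate 4 lay inside the DMSO range. The log2 change of Eif1 was 0.14 ± 0.04 (edgeR adjusted p = 0.013), and without dTAG-13 replicate 3 the adjusted p was 0.05 at a log2 change of 0.12, just outside the threshold. Over 14 alternative settings that adjusted p ran from 0.000154 to 0.101.

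Eif1a, which with eIF1 holds the ribosome open for scanning, moved the other way. It had 68.4, 65.0, 70.4 and 64.4 CPM in dTAG-13 libraries, against 79.7, 84.6, 77.0 and 77.0 CPM in DMSO libraries. The groups did not overlap, and the log2 change was -0.25 ± 0.04 (edgeR adjusted p = 6.5e-05). Eif1ax, its paralog on the X chromosome, had a log2 change of -0.10 ± 0.04 that did not pass (edgeR adjusted p = 0.115). Eif5b, the GTPase that joins the ribosomal subunits, fell by 0.14 on the log2 scale (SE 0.05, edgeR adjusted p = 0.0406). That call was lost without DMSO replicate 1 or 4 and without dTAG-13 replicate 2, 3 or 4, with an adjusted p of 0.0616 to 0.214 and, without DMSO replicate 1, a log2 change of -0.09. With whole-gene counts it was also lost (edgeR adjusted p = 0.136). Eif5, the factor that makes eIF2 hydrolyse its GTP, had a log2 change of 0.04 ± 0.04 and was not called.

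**Figure D2:**
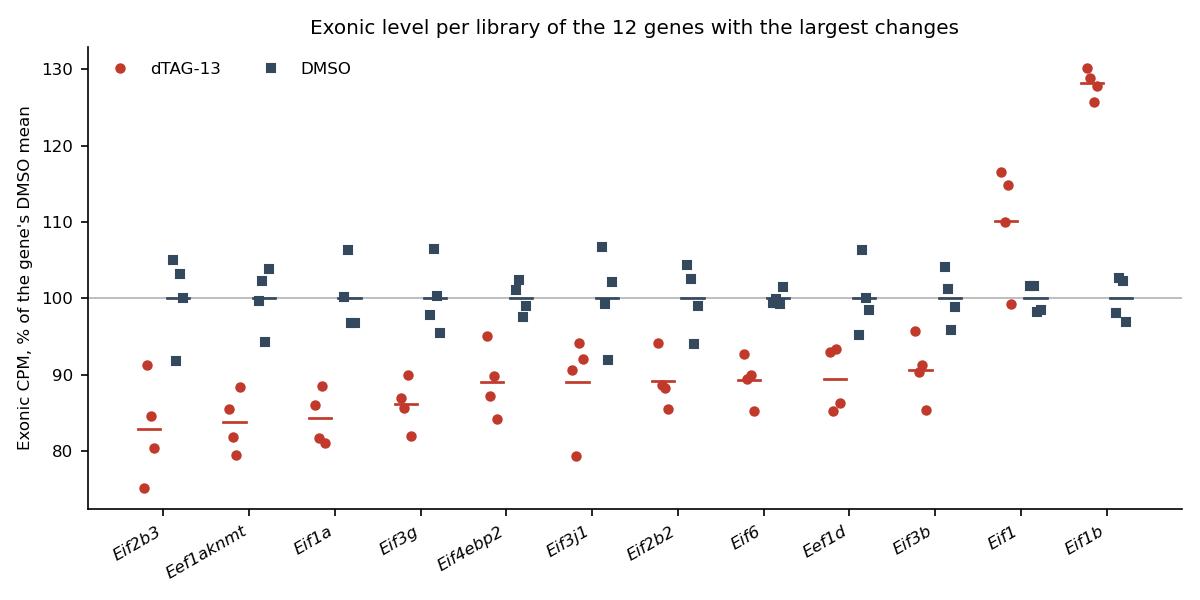
Exonic level of the 12 genes with the largest called changes in each library, as percent of the gene's mean CPM over the 4 DMSO libraries (y axis, not starting at 0); points are libraries and short lines group means. The 4 dTAG-13 libraries lie below the DMSO libraries for Eif2b3, Eef1aknmt, Eif1a, Eif3g, Eif4ebp2, Eif6, Eef1d and Eif3b, and above them for Eif1b, while Eif3j1, Eif2b2 and Eif1 overlap.

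None of the 4 genes of eIF2, the carrier of the initiator tRNA, was called by edgeR or by DESeq2, and 1 had an unadjusted p below 0.05. Eif2s3x, the gene of the GTP-binding subunit and the highest of the 4 per kb of exon, had 97.7, 90.4, 90.1 and 85.1 CPM in dTAG-13 libraries and 95.02, 91.5, 86.4 and 90.1 CPM in DMSO libraries. Its groups overlapped fully and the log2 change was 0.00 ± 0.04, with a 95% interval of -0.09 to 0.09. Eif2s1, the subunit that the eIF2 kinases phosphorylate, had a log2 change of -0.10 ± 0.04 (edgeR adjusted p = 0.0677).

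All 5 subunits of eIF2B, the factor that reloads eIF2, had a log2 change below 0, and 2 of them fell. Eif2b3, part of the catalytic subcomplex, had 14.7, 17.8, 16.5 and 15.7 CPM in dTAG-13 libraries, against 20.5, 17.9, 20.1 and 19.5 CPM in DMSO libraries. The groups were separate by a narrow margin, since dTAG-13 replicate 2 and DMSO replicate 2 were nearly equal. The log2 change of -0.27 ± 0.07 was the largest fall of any translation factor (edgeR adjusted p = 0.0062). Eif2b2, a regulatory subunit, had 51.0, 48.1, 47.9 and 46.4 CPM in dTAG-13 libraries and 56.6, 55.6, 51.0 and 53.7 CPM in DMSO libraries. Its highest dTAG-13 library just met its lowest DMSO library, and the log2 change was -0.16 ± 0.05 (edgeR adjusted p = 0.0074). Eif2b5, the catalytic subunit and the highest of the 5 per kb, had 80.9, 81.7, 80.4 and 75.2 CPM in dTAG-13 libraries, against 83.2, 82.0, 83.1 and 80.5 CPM in DMSO libraries. Its log2 change of -0.05 ± 0.04 did not pass (edgeR adjusted p = 0.431).

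eIF3, the largest initiation factor, bridges the small subunit and the eIF4 factors. Of its 14 genes 3 fell, 11 did not pass and none rose, and 13 had a log2 change below 0 with a group median of -0.06. Eif3g, an RNA-binding subunit, had 94.8, 93.4, 98.1 and 89.3 CPM in dTAG-13 libraries and 107, 116, 109 and 104 CPM in DMSO libraries. The groups did not overlap, and the log2 change was -0.21 ± 0.04 (edgeR adjusted p = 0.0002). Eif3b, a core scaffold subunit, had 281, 265, 268 and 250.2 CPM in dTAG-13 libraries and 305, 297, 281 and 289.9 CPM in DMSO libraries. These groups touched without overlapping, at a log2 change of -0.14 ± 0.04 (edgeR adjusted p = 0.0065).

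Eif3j1, a loosely bound subunit that acts near the decoding site, had 33.5, 29.3, 34.8 and 34.0 CPM in dTAG-13 libraries and 39.4, 36.7, 34.0 and 37.7 CPM in DMSO libraries. The groups overlapped, and the log2 change of -0.17 ± 0.06 passed narrowly (edgeR adjusted p = 0.0343). Without DMSO replicate 1, 2 or 4 or without dTAG-13 replicate 2 it did not pass, at an adjusted p of 0.0592 to 0.162. Its copy Eif3j2 was read at 0.30 CPM per kb of exon in dTAG-13 libraries and 0.20 CPM per kb in DMSO libraries and was not called (log2 change 0.61 ± 0.36). Eif3h, the highest subunit per kb, had 239, 216, 227 and 211 CPM in dTAG-13 libraries and 226, 234, 215 and 222 CPM in DMSO libraries, overlapping groups with a log2 change of -0.01 ± 0.04.

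Of 13 genes in the cap-binding and helicase group 11 were tested and 3 fell. Eif4g1, the main scaffold of the cap-binding complex, fell by 0.13 on the log2 scale (SE 0.04, edgeR adjusted p = 0.0085). Eif4e, the cap-binding protein itself, fell by 0.12 (SE 0.04, edgeR adjusted p = 0.0189), and Eif4b, a cofactor of the helicase eIF4A, fell by 0.10 (SE 0.04, edgeR adjusted p = 0.0405). The call of Eif4e was lost without DMSO replicate 2 or 3 or dTAG-13 replicate 2 or 3, at an adjusted p of 0.0523 to 0.0808. It was also lost with whole-gene counts (edgeR adjusted p = 0.0591). The call of Eif4b was lost without DMSO replicate 1, 2 or 4 or dTAG-13 replicate 2 or 4, at an adjusted p of 0.0587 to 0.119. With whole-gene counts it was lost too (edgeR adjusted p = 0.233), as was that of Eif4g1 (edgeR adjusted p = 0.171). Eif4a1, the main eIF4A helicase and the highest of the group per kb, had 637, 628, 651 and 607 CPM in dTAG-13 libraries and 675, 664, 651 and 667 CPM in DMSO libraries. These groups touched without overlapping, and the log2 change of -0.08 ± 0.03 did not pass here (edgeR adjusted p = 0.095) but passed with DESeq2 (adjusted p = 0.0372). Eif4g2, a relative of eIF4G1 that lacks the eIF4E-binding region, had a log2 change of 0.06 ± 0.03 and was not called.

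The eIF4E-binding proteins hold eIF4E away from the cap-binding complex when mTORC1 is inactive. Of 4 genes in this group, including the eIF4E transporter Eif4enif1, only Eif4ebp2 fell. It had 179, 165, 169 and 159 CPM in dTAG-13 libraries, against 191, 193, 184 and 187 CPM in DMSO libraries. The groups did not overlap, and the log2 change was -0.17 ± 0.04 (edgeR adjusted p = 0.0017). Eif4ebp1 had a log2 change of 0.02 ± 0.05 and Eif4ebp3 one of -0.13 ± 0.36, neither called. Per kb of exon, Eif4ebp2 stood at 29.0 CPM and Eif4ebp1 at 29.3 CPM in dTAG-13 libraries, and at 32.6 CPM and 28.9 CPM in DMSO libraries.

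Eif6, whose protein keeps the large ribosomal subunit from joining too early, had 80.8, 78.0, 78.5 and 74.4 CPM in dTAG-13 libraries and 86.7, 87.1, 86.5 and 88.5 CPM in DMSO libraries. The groups did not overlap, at a log2 change of -0.16 ± 0.04 (edgeR adjusted p = 0.0018). Eif5a, the hypusine-bearing factor that helps stalled ribosomes onward, had 818, 794, 810.0 and 762 CPM in dTAG-13 libraries and 830.2, 841, 816 and 831 CPM in DMSO libraries. Only dTAG-13 replicate 1 reached into the DMSO range, and the log2 change of -0.06 ± 0.03 did not pass (edgeR adjusted p = 0.193).

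Among the eIF2 kinases kept by the rule and the factors eIF2A and eIF2D, which can also carry initiator tRNA, 1 of 4 genes fell. That gene was Eif2ak4, which encodes GCN2, the kinase activated by uncharged tRNA, with a log2 change of -0.12 ± 0.04 (edgeR adjusted p = 0.035). Without DMSO replicate 1 or 3 or without dTAG-13 replicate 3 or 4 it did not pass, at an adjusted p of 0.0616 to 0.134. Nor did it pass with no filter on low counts (edgeR adjusted p = 0.0736) or with whole-gene counts (edgeR adjusted p = 0.202). Eif2ak1, the haem-regulated kinase, had a log2 change of -0.03 ± 0.05. Eif2a, the highest of the group per kb, had 102, 98.0, 107 and 104 CPM in dTAG-13 libraries and 103, 103, 102 and 105 CPM in DMSO libraries, with overlapping groups and a log2 change of -0.01 ± 0.04.

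Eef1a1 and Eef2 had the highest levels per kb of all the genes, and neither was called. Eef1a1, the form of eEF1A used in most cell types, had 6537, 6101, 6444 and 5913 CPM in dTAG-13 libraries and 6206, 6503, 6119 and 6253 CPM in DMSO libraries. The groups overlapped fully and the log2 change was -0.0049 ± 0.03, with a 95% interval of -0.07 to 0.06. Eef2, the translocase, had 4216, 4066, 4279 and 3926 CPM in dTAG-13 libraries and 4087, 4139.6, 3955 and 4034 CPM in DMSO libraries, again overlapping, with a log2 change of 0.02 ± 0.03. Of the 6 genes in the group only Eef1d fell, a subunit of the eEF1B complex that reloads eEF1A. It had 91.4, 83.7, 91.7 and 84.8 CPM in dTAG-13 libraries and 93.6, 104, 98.3 and 96.8 CPM in DMSO libraries, separate groups with a log2 change of -0.16 ± 0.04 (edgeR adjusted p = 0.0051). The partner subunits Eef1b2 and Eef1g had log2 changes of -0.05 ± 0.05 and -0.04 ± 0.04 and were not called.

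Of 6 genes for enzymes that modify elongation factors 5 were tested and 2 fell. Eef1aknmt, a methyltransferase of eEF1A, had 35.2, 33.7, 32.8 and 36.4 CPM in dTAG-13 libraries and 41.1, 42.1, 38.8 and 42.8 CPM in DMSO libraries. The groups did not overlap, and the log2 change was -0.26 ± 0.05 (edgeR adjusted p = 0.000286). Eef2k, the kinase that inactivates eEF2, had 111, 105, 112 and 106 CPM in dTAG-13 libraries, against 115, 114, 118 and 125 CPM in DMSO libraries. These groups were separate at a log2 change of -0.12 ± 0.04 (edgeR adjusted p = 0.0244). The call was lost without DMSO replicate 4 or dTAG-13 replicate 2 or 4, at an adjusted p of 0.0595 to 0.132. With whole-gene counts it was also lost (edgeR adjusted p = 0.1). The pseudogene Eef2-ps2 was read at 3.59, 3.90, 3.87 and 4.31 CPM in dTAG-13 libraries and 4.39, 3.28, 3.21 and 3.62 CPM in DMSO libraries, and reads shared with Eef2 cannot be told apart from its own.

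The 5 genes with the highest levels per kb of exon had the same order in both groups. In dTAG-13 libraries Eef1a1 stood at 2507 CPM per kb, Eef2 at 1240.0, Eif5a at 335, Eef1g at 189 and Eif4a1 at 146. In DMSO libraries the same genes stood at 2515, 1219.6, 349, 194 and 153 CPM per kb. Between roles, in DMSO libraries the median level was 37.1 CPM per kb over the eIF3 genes, 19.4 over the eIF2 genes and 11.8 over the eIF2B genes. The 39 genes that were not called and reached 10 CPM in DMSO libraries had log2 changes of -0.11 to 0.06. Their 95% intervals lay between -0.22 and 0.17, which bounds the size of change that these libraries allow for them.

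**Figure D3:**
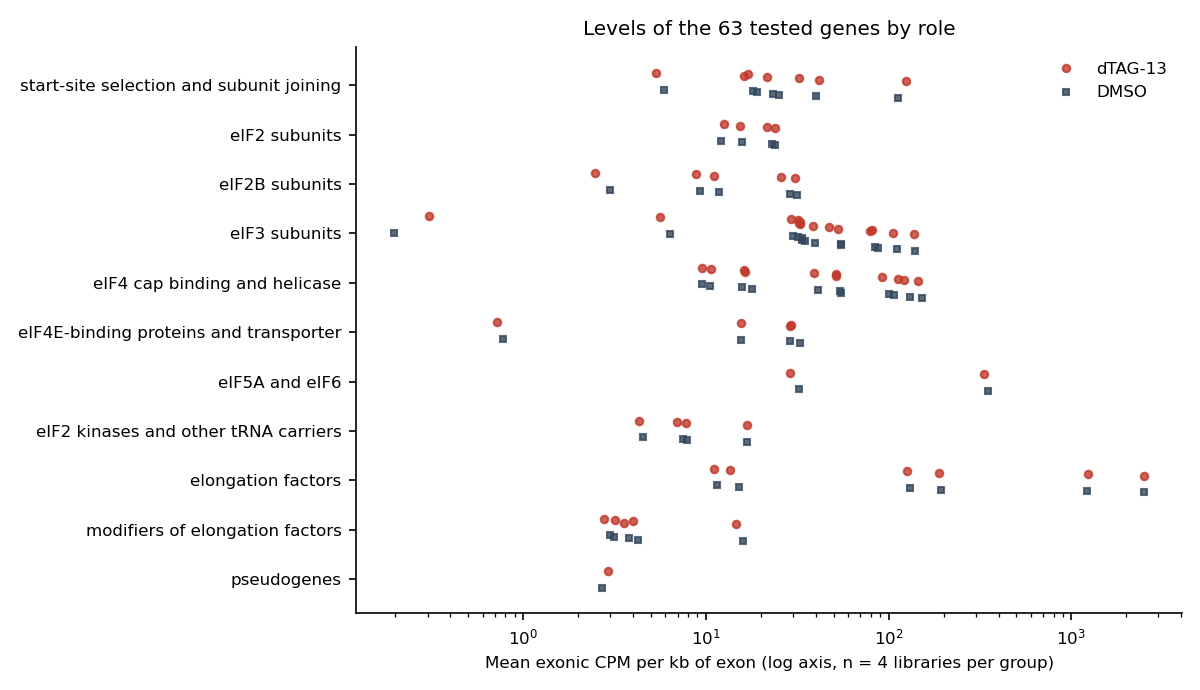
Mean exonic CPM per kb of exon (x axis, logarithmic) of the 63 tested genes by role, with dTAG-13 means as circles above DMSO means as squares (n = 4 libraries each). Eef1a1 and Eef2 stand apart at 2507 and 1240.0 CPM per kb in dTAG-13 libraries, and within each gene the 2 groups lie close together.

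Several factors exist as pairs of paralogs, and their balance was compared as the ratio of exonic counts within each library, which no library scaling can move. The comparison was chosen after the values were seen, and it covered 10 pairs. The ratio of Eif1b to Eif1 was 0.140 in dTAG-13 libraries (range 0.132 to 0.155) and 0.120 in DMSO libraries (range 0.116 to 0.125), with all dTAG-13 libraries above. For Eif1a to Eif1ax the ratio was 0.750 in dTAG-13 libraries (range 0.717 to 0.771) and 0.832 in DMSO libraries (range 0.805 to 0.856), with all dTAG-13 libraries below. For Eif4g1 to Eif4g2 it was 0.586 in dTAG-13 libraries (range 0.574 to 0.612) and 0.671 in DMSO libraries (range 0.650 to 0.698), again with all dTAG-13 libraries below. Each of these had a p of 0.0286, the smallest that an exact two-sided permutation test of 4 against 4 libraries can give. After Benjamini-Hochberg adjustment over the 10 pairs it was 0.0952, so none passed. With 4 libraries per group a pair could pass only if most of the 10 pairs had that smallest p, so the test could not decide on single pairs. The other 7 pairs overlapped between the groups. For Eif4a1 to Eif4a2 the ratio was 3.02 in both groups.

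**Figure D4:**
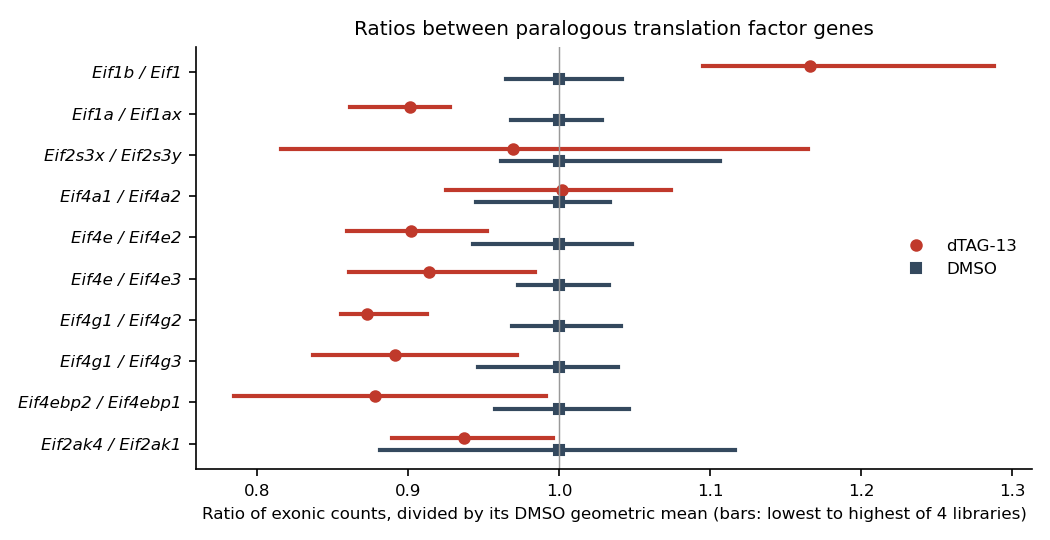
Ratio of exonic counts between 10 pairs of paralogous genes, divided by its geometric mean in DMSO libraries (x axis); symbols are group means and bars run from the lowest to the highest of 4 libraries. The dTAG-13 and DMSO bars are apart for Eif1b to Eif1, Eif1a to Eif1ax and Eif4g1 to Eif4g2, and overlap or meet in the other pairs.

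Intronic reads, taken here as a measure closer to ongoing transcription, were tested in 61 of the genes. Eif1a fell, 0 genes rose, and 1 call among 61 compares with 16.8% of all 11229 genes called in intronic reads and 8.50% called lower. Intronic Eif1a reads were 51.7, 46.6, 52.8 and 49.0 CPM in dTAG-13 libraries and 56.5, 67.9, 60.3 and 62.5 CPM in DMSO libraries. The groups did not overlap, and the intronic log2 change of -0.31 ± 0.08 (edgeR adjusted p = 0.0093) stood beside an exonic one of -0.25. At an unadjusted p below 0.05 there were 10 genes, all lower, against 14.5% of all genes lower at that threshold, and with DESeq2 there was 1 lower and 0 higher gene. Without DMSO replicate 1 or without DMSO replicate 2 there were 2 lower genes. The median intronic log2 change of the 61 genes was -0.06, against -0.0027 over all genes tested in intronic reads. Of the 61 values 40 were below 0, and the share of all genes below 0 in intronic reads is not given here.

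The exonic calls could be set beside intronic values in 17 of 18 genes. Of the 16 genes with a fall in exonic reads, 14 also had an intronic log2 change below 0, with a median of -0.11 beside an exonic median of -0.16. The matching share over all genes lower in exonic reads is not given here. Eef1aknmt had 6.93, 7.28, 6.53 and 7.16 intronic CPM in dTAG-13 libraries and 7.36, 11.2, 10.3 and 9.73 in DMSO libraries, separate groups with a log2 change of -0.47 ± 0.18 that did not pass (edgeR adjusted p = 0.0875). Eif2b2 and Eif6 were the exceptions, with intronic log2 changes of 0.20 ± 0.15 and 0.03 ± 0.16, neither called. Eif1b has few intronic reads, at 0.931, 1.90, 1.03 and 0.478 CPM in dTAG-13 libraries and 1.93, 1.78, 1.22 and 2.08 CPM in DMSO libraries, so its intronic log2 change of -0.67 ± 0.43 is imprecise. Eif1 has no intronic reads, since annotated exons cover all but 114 bases of the gene.

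Whether the exonic and the intronic change of a gene differ was tested directly in 60 genes, and none passed with edgeR, against 0.279% of all 10026 genes. At an unadjusted p below 0.05 there were 4 genes, against 7.68% of all genes, and DESeq2 also called 0. The smallest adjusted p was 0.388, for Eif1b, where the exonic change exceeded the intronic one by 1.01 ± 0.34 on the log2 scale. The other 3 genes were Eef1b2 (0.33 ± 0.12), Eif2b2 (-0.38 ± 0.13) and Eif3d (-0.16 ± 0.08), named after their values were seen. The median standard error of this difference was 0.09, against 0.04 for an exonic and 0.09 for an intronic change, so small differences between the read classes were not detectable.

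**Figure D5:**
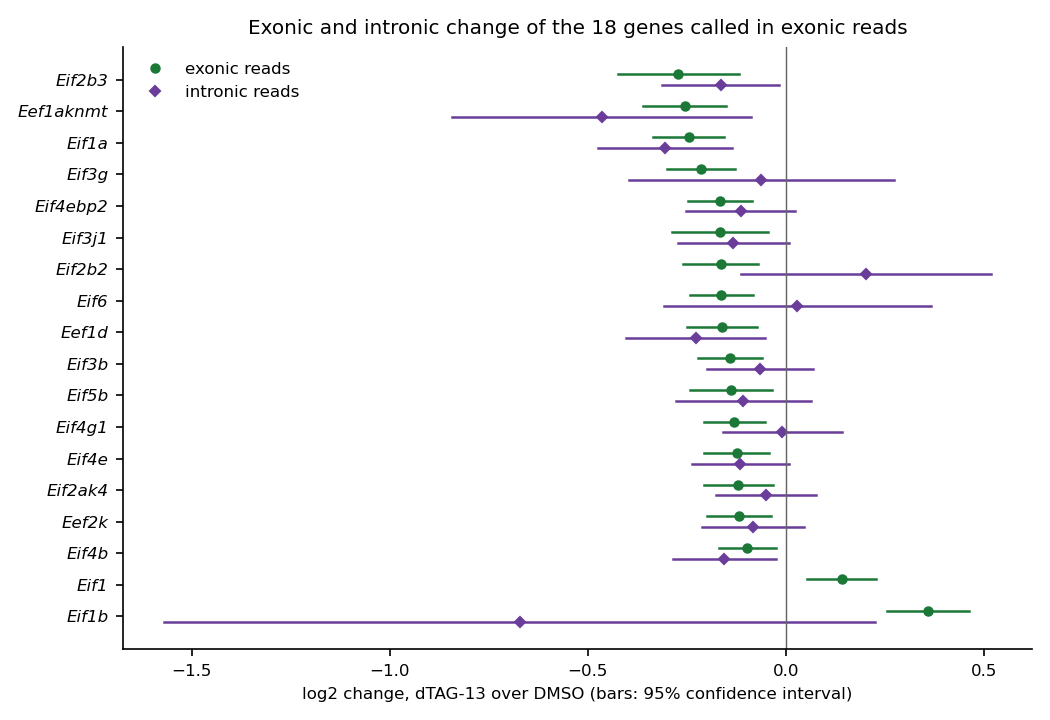
Exonic (circles) and intronic (diamonds) log2 change, dTAG-13 over DMSO, of the 18 genes called in exonic reads, with 95% confidence intervals from edgeR (n = 4 libraries per group). Intronic values of 14 of the 16 lower genes lie left of 0, and those of Eif2b2 and Eif6 lie right of it.

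Counts of some of these genes are uncertain because other annotated genes overlap them and the strand setting of the counting is not given in the sources used here. An exon is shared with another gene on the same strand in 13 of the 67 genes and overlaps a gene on the opposite strand in 16. Among the called genes, Eef1d shares exon sequence on its own strand with Naprt, Eif3j1 with Gm47314, Eif4e with Mir1956 and Eif4g1 with Snord66. On the opposite strand Eif1b, Eef2k, Eif6, Eif3j1 and Eif5b overlap antisense or neighbouring genes. A small nucleolar RNA gene lies within 8 of the genes, Eif4g1 among them. Near-identical copies such as Eif1 and Eif1b, Eif1a and Eif1ax, or Eif3j1 and Eif3j2 may share reads.

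Promoter sequence was read from RefSeq windows of 250 bases before each start (GRCm38.p6), which 49 of the 67 genes have, in 64 windows. They were searched on both strands for CACGTG, the palindromic E-box bound by MYC and related factors, and for CCCNNGGGA, the core of the motif bound by EBF1, and no site of one motif overlapped a site of the other in the sites shown. CACGTG stood in 13 of the 64 windows (20.3%), in 11 genes, against 6.02% of all 32851 windows and 8.49% of the 10906 windows of genes tested here. The 12 lower genes with a window had the E-box in 4 of 16 windows (25.0%). The 34 uncalled genes with a window had it in 8 of 45 windows (17.8%), and the 2 higher genes in 1 of 2 windows. CCCNNGGGA stood in 1 window, that of Eif2b2 (1.56%), against 5.60% of all windows and 6.44% of windows of tested genes. A match is a description of the letters and not a site of binding, and windows of 1 gene can overlap.

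The sites of the called genes, and those of Eef2 and Eif5a, abundant genes that were not called, are shown to let the flanks of the shared motif be compared. Each is written 5′ to 3′ on the gene's strand with the motif in capitals and 10 bases on either side.
Eif1b: tgcggacggtCACGTGgcggcggcgc
Eef1aknmt: gtggctgctgCACGTGgggcgcggac
Eef2k: cggggacggcCACGTGagcccgggcg
Eif4e, first site: cgccagcgacCACGTGatcacttttt
Eif4e, second site: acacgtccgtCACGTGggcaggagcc
Eif4g1: cagtgggtgtCACGTGatggggcgga
Eef2: ccggcgccgtCACGTGacgcacccaa
Eif5a, first site: gctgcgcggcCACGTGaggtggggga
Eif5a, second site: ggggcggggtCACGTGtgtgcgtcat
Eif2b2 (EBF1 core): gcgcgcagacTCCCAAGGGgacccttcca
The CACGTG within the Eif1b site (chr9:120492572-120492597, plus strand) begins 24 bases before the RefSeq start, and this site belongs to the gene that rose most. The sites of Eef1aknmt (chr1:162548477-162548502, minus strand), Eef2k (chr7:120842790-120842815, plus strand), Eif4e (chr3:138527030-138527055 and chr3:138527194-138527219, plus strand) and Eif4g1 (chr16:20672663-20672688, plus strand) belong to genes that fell. The sites of Eef2 (chr10:81176578-81176603, plus strand) and Eif5a (chr11:69920793-69920818 and chr11:69921445-69921470, minus strand) belong to genes that were not called, and the Eif2b2 site (chr12:85219336-85219364, plus strand) to a gene that fell. The E-box was therefore present in genes that rose, fell and were not called.

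Genes of translation outside the naming rule were read from the same exonic fit in 7 lists with 66 tested genes. Of these 13 fell and 4 rose, with a median log2 change of -0.04. The share called was 25.8%, against 28.3% of all genes, with 19.7% called lower against 14.0% and 6.06% called higher against 14.3%. Over whole-gene counts 6 fell, and the share of all genes called with those counts is not given here. The list of termination and recycling factors, which also takes in the ATPases Abcf1, Abcf2 and Abcf3, held 4 falls among 11 genes, with a median of -0.12. Abcf2, a ribosome-associated ATPase, had a log2 change of -0.29 ± 0.04 (edgeR adjusted p = 3.6e-06). Gspt1, the release factor eRF3, had one of -0.21 ± 0.04, and Abcf1 one of -0.14 ± 0.04. With whole-gene counts the call of Abcf1 was lost (edgeR adjusted p = 0.0606). Of 16 cap- and poly(A)-binding proteins and their regulators 5 fell and 3 rose. The rises, named after their values were seen, were those of Ddx3x, a DEAD-box RNA helicase, with a log2 change of 0.22 ± 0.04 (edgeR adjusted p = 5.0e-05), and of the eIF4E kinases Mknk1 (0.18 ± 0.06, edgeR adjusted p = 0.018) and Mknk2 (0.11 ± 0.04, edgeR adjusted p = 0.0151). The call of Mknk1 was lost without DMSO replicate 2 or dTAG-13 replicate 3 or 4, at an adjusted p of 0.0556 to 0.092. That of Mknk2 was lost without dTAG-13 replicate 1 (adjusted p = 0.0538) and with whole-gene counts (adjusted p = 0.101). Paip2, which removes poly(A)-binding protein from mRNA, had 67.3 ± 2.695 CPM in dTAG-13 libraries and 92.1 ± 1.401 CPM in DMSO libraries (SD, n = 4 each), a log2 change of -0.45 ± 0.04 (edgeR adjusted p = 6.8e-10). Pdcd4, an inhibitor of eIF4A, had 17.9 ± 0.779 CPM in dTAG-13 libraries and 25.2 ± 2.59 CPM in DMSO libraries, a log2 change of -0.49 ± 0.07 (edgeR adjusted p = 5.0e-06). Larp1, which binds the mRNAs of translation factors themselves, fell by 0.20 on the log2 scale (SE 0.03, edgeR adjusted p = 4.6e-05).

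Among mTORC1 and S6 kinase genes 2 of 10 fell and none rose. The mTORC1 subunit Rptor had a log2 change of -0.17 ± 0.04 (edgeR adjusted p = 0.0011), and its call was lost with whole-gene counts (edgeR adjusted p = 0.246). The mTOR inhibitor Deptor had one of -0.68 ± 0.19 at 2.13 ± 0.453 CPM in dTAG-13 libraries and 3.41 ± 0.460 CPM in DMSO libraries (edgeR adjusted p = 0.0079). Of 9 mitochondrial translation factors Mtif2, the mitochondrial initiation factor, rose by 0.35 (SE 0.08, edgeR adjusted p = 0.0014) and Tufm, the mitochondrial elongation factor, fell by 0.19 (SE 0.05, edgeR adjusted p = 0.0034). The call of Tufm was lost with whole-gene counts (edgeR adjusted p = 0.0724). Of 6 selenocysteine genes Eefsec, the elongation factor for that amino acid, fell by 0.14 (SE 0.05, edgeR adjusted p = 0.0404). It lost the call with DESeq2 (adjusted p = 0.0511) and with whole-gene counts (edgeR adjusted p = 0.638). The call was also lost without DMSO replicate 1, 2 or 4 or dTAG-13 replicate 1 or 4, at an adjusted p of 0.0575 to 0.176. None of 9 enzymes that modify eIF5A or eEF2 was called by edgeR or DESeq2 (3 had an unadjusted p below 0.05; median log2 change 0.01). None of 5 genes of eIF2 phosphorylation control was called by either tool (0 had an unadjusted p below 0.05; median log2 change 0.05). Atf4, the transcription factor whose mRNA is translated when eIF2 is phosphorylated, had a log2 change of 0.07 ± 0.04 (edgeR adjusted p = 0.195).

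In the authors' deposited table, 15 of the translation factor genes were lower and 2 higher in exonic reads at its adjusted p below 0.05, and 1 was lower and 0 higher in intronic reads. The exonic calls were the same in 16 genes. Eif3j1 and Eif5b were called here only, and Eif4a1 in the authors' deposited table only.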

How the data were processed

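Total RNA of 8 libraries was depleted of ribosomal RNA and made into stranded libraries, per the labels' protocols. Unnormalized read counts per gene, over exons and over whole genes, were deposited, per the file headers. Tools named in the submitters' processing notes are featureCounts, Subread 2.0.0, STAR 2.7.4a, DESeq2, SAMtools 1.10 and deepTools 3.3.2, with builds GRCm38.p4 and mm10. Not given in the sources used here are the strand setting, the annotation release and which tool did what. The authors' deposited table holds log2 fold changes and p-values with their adjusted values, per the file headers, and was used for names and to compare calls.

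Intronic counts were computed as whole-gene minus exon counts. The whole tables were fitted with edgeR 4.0.16 in R 4.3.3 (quasi-likelihood F test, TMM factors, filterByExpr with a minimum count of 10 and a minimum total of 15, with treatment as sole term), and Benjamini-Hochberg adjustment ran over all tested genes with a threshold of 0.05. Standard errors are the log2 change divided by the square root of F. The difference between exonic and intronic change was an interaction in 1 model of 16 columns with the library as a block. The fits were run on simulated counts with known changes, all larger than the largest exonic change of a called translation factor gene. Recovery of changes as small as those of the called translation factor genes was therefore not tested. CPM is relative to the TMM-scaled library, so it would not show a cell-wide rise or fall of RNA. Exon lengths and overlaps came from GENCODE vM21 (GRCm38), which may not be the release the authors counted with. Library totals include predicted genes that overlap ribosomal RNA sequence, 25.7% to 29.3% of exonic reads.

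The translation factor genes and the gene lists were chosen with earlier results of these data known. Values per library are given for the 12 largest changes among called genes and for the highest gene per kb of each of 11 role groups, other called genes and paralogs are named with their change, and in each list at most 3 genes are named, taken from its lowest p-values. Eef2 and a few uncalled genes beside a named one (Eif5, Eif2s1, Eef1b2, Eef1g), and the list genes Ddx3x, Mknk1 and Mknk2, were added after their values were seen. Alternatives were RLE size factors, DESeq2 1.42.0, no filter on low counts, the replicate number as a block, each library left out, whole-gene counts, and library sizes without the ribosomal predicted genes Gm26917 and Gm42418.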

Additional observations from a re-analysis of the deposited data

How the results depend on the processing

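With size factors of the RLE type, DESeq2, no filter, or without Gm26917 and Gm42418, the number of translation factor genes lower in exonic reads was 16, 17, 15 and 16, with 2 higher each time. With whole-gene counts 7 were lower and 1 higher, all 8 of them also called with exon counts. Of the other translation genes 6 were lower in place of 13. The cause was not tested, and the share of all genes called with whole-gene counts is not given here. Leaving out 1 library gave 11 to 20 lower and 1 to 3 higher genes in exonic reads, 1 to 2 lower in intronic reads and 0 for the difference between read classes. The single higher gene was found without dTAG-13 replicate 3, and the 2 lower intronic genes without DMSO replicate 1 or 2. Of the 18 called genes 7 (Eif1b, Eif2b3, Eef1aknmt, Eif1a, Eif3g, Eif4ebp2 and Eef1d) kept their call under all 14 alternatives, and 11 lost it under at least 1. Whole-gene counts alone took the call of Eif2b2 (adjusted p = 0.113), Eif3b (0.111), Eif4g1 (0.171) and Eif6 (0.0532).

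No pairing by replicate number was assumed, since the labels do not say that a replicate number marks a shared culture or day. Deviations of same-numbered libraries correlated at 0.09, -0.02, -0.07 and 0.05, and those of differently numbered libraries at -0.20 to 0.20. With the replicate block 16 translation factor genes were lower and 2 higher in exonic reads, 1 lower and 0 higher in intronic reads, 0 differed between read classes, and 15 of the other translation genes were lower.

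Values that changed sign lay close to 0. Eef1a1 had a log2 change of 0.0086 with whole-gene counts and of -0.0273 to 0.0225 with 1 library left out. Eif2s3x had -0.001 with whole-gene counts and -0.0344 to 0.0339 with 1 library left out. With 1 library left out, Eif2a ran from -0.0281 to 0.0131, Eif3h from -0.041 to 0.0205, and Sepsecs, a selenocysteine enzyme, from -0.1172 to 0.0135. Depth limits low genes such as Eif3j2 and Eif4ebp3 in exonic and Eif1b and Eef1akmt3 in intronic reads, whose standard errors were 0.36, 0.36, 0.43 and 0.43.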
